A study of Homo sapiens with 2 samples.

Results

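The genes described here are 42 components of the actin cytoskeleton, many of them targets of the transcription factor SRF, together with SRF itself. They were chosen by gene symbol from a list, and all 42 were among the 52402 symbols of the deposited count files. These genes and the further lists below were chosen with earlier results of these data known. The study measured total RNA from DLD1, an established human colorectal adenocarcinoma cell line, in 1 control library, labelled wild type, and 1 library labelled as a knockout of HERV-R, an endogenous retrovirus of the human genome. In the protocol that the labels give for both, vectors for Cas9 and a single guide RNA were transfected with Lipofectamine 3000 and colonies were selected in hygromycin. The sources used here do not state which vectors the control cells received or how many clones the knockout holds.

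Actin monomers assemble into filaments that tropomyosins coat, filamin and alpha-actinin crosslink, non-muscle myosin II pulls on and focal adhesions anchor to the membrane. SRF binds a short DNA element, the CArG box, in the promoters of many of these genes. Its cofactors of the MRTF family are held back by free actin monomers, so that the pool of unassembled actin feeds back on transcription of the actin machinery. In intestinal epithelium these genes serve the cell cortex, junctional tension and adhesion to the matrix.

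The control library held 21881122 counts and the other 16406308. Levels are given as CPM, the counts of a gene per 1000000 counts of its library. With 1 library per group there was no replicate and hence no test, and no p-value is given. The intervals are exact 95% Clopper-Pearson intervals on the counts and cover counting error only. ERV3-1, the gene that carries the HERV-R envelope, had 127 control counts against 125 under the knockout label, or 5.80 and 7.62 CPM, a ratio of 1.31 (1.02 to 1.69). Its counts were therefore not lower under the knockout label. The sources used here do not state whether the guide's target lies in the counted part, and the second library is called the knockout-labelled library. Epithelial markers were present in both, with EPCAM at 701 and 750 CPM (control first, as in every pair of values that follows) and CDH1 at 854 and 704 CPM, while KRT20, a symbol on 2 rows of the files, and CDX1 were listed at 0. Other epithelial markers differed between the libraries. The keratins KRT18, at 4967 and 1741 CPM, KRT8, at 4138 and 1875.5 CPM, and KRT19, at 664 and 273 CPM, were 2.85-fold, 2.21-fold and 2.44-fold lower. CDX2, at 99.4 and 298 CPM, and PHGR1, at 57.4 and 120.2 CPM, were 2.998-fold and 2.09-fold higher. Of the 13 epithelial markers 10 were compared. Of these, 3 were at least 2-fold lower, against 5.69% of all compared genes, and 2 at least 2-fold higher, against 6.78%. The summed level of the 13 was 1.93-fold lower. The part of this difference in the values of the actin genes was not tested.

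The actin cytoskeleton genes were lower as a group in the knockout-labelled library. Their summed level was 20431 CPM against 13084 CPM, a 1.56-fold difference, or 2.04% and 1.31% of all counts. Of the 42 genes, 39 had a mean of at least 1 CPM and were compared, as were 12644 genes in all. A change is given as the log2 ratio of CPM plus 1, which understates the change of genes with few counts. At least 2-fold lower were 14 of the 39, against 5.69% of all compared genes, and at least 2-fold higher were 0, against 6.78%. The 14 include CALD1 and TAGLN, which were compared only through their control level. By the same measure 21 of the 39 were at least 1.5-fold lower, against 13.2% of all compared genes, and 1 was at least 1.5-fold higher, against 20.3%. The log2 ratio was below 0 for 33 of the 39 and above 0 for 6. The median over the 39 was -0.65, whereas the median over all compared genes was 0.12. Because the genes were chosen with earlier results of these data known, these contrasts with all compared genes are a description only.

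**Figure D1:**
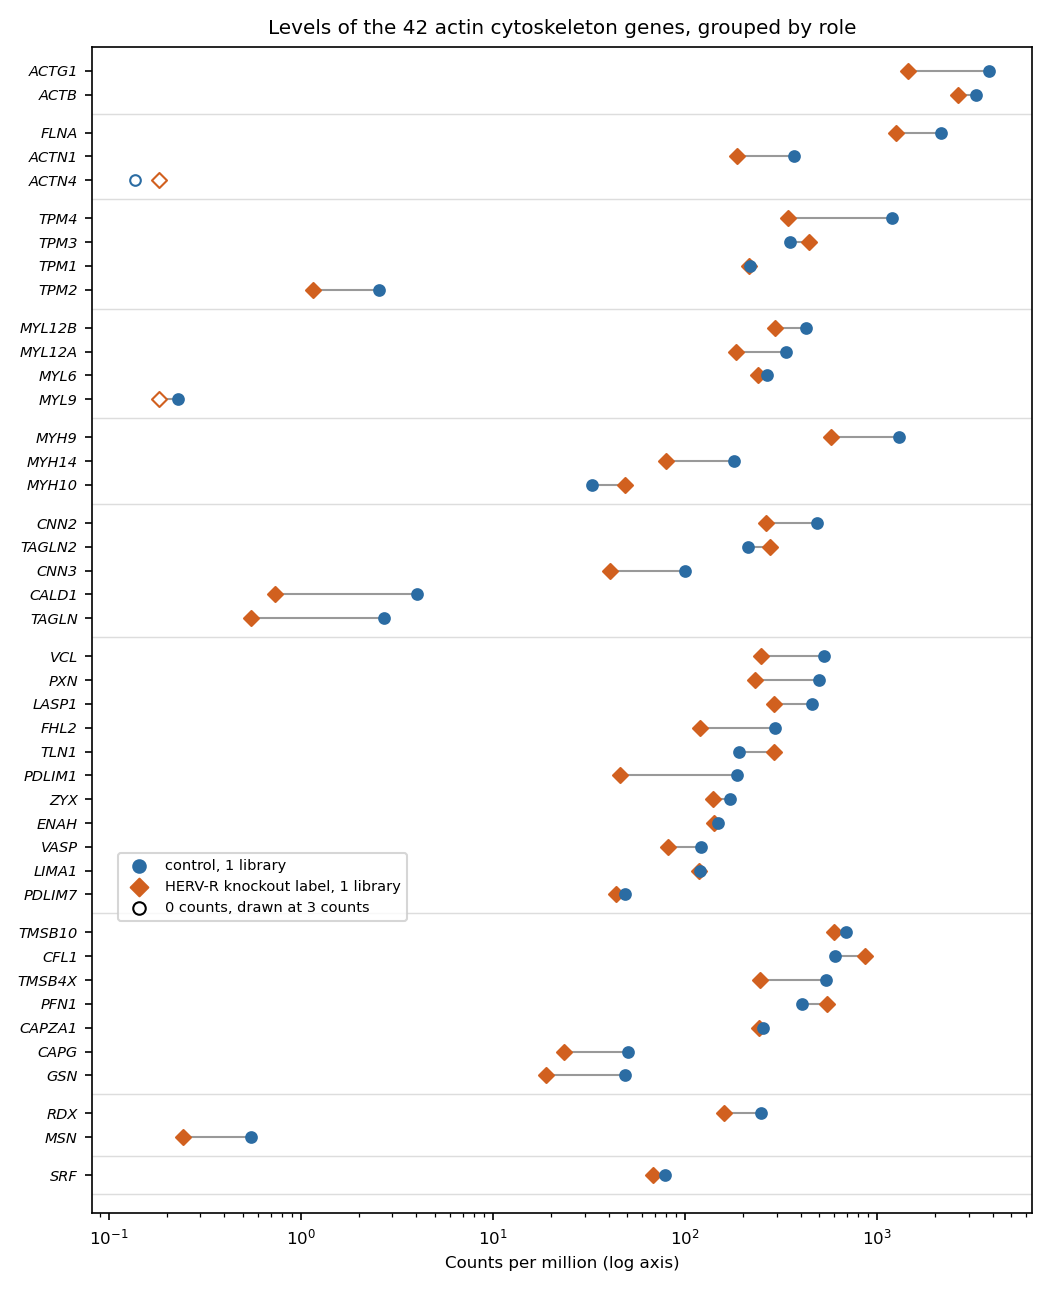
Level of each of the 42 genes, in CPM on a log axis, in the control library (circles) and the knockout-labelled library (diamonds), grouped by role from actins at the top to SRF at the bottom; open symbols mark 0 counts and are drawn at the level of 3 counts. Most diamonds lie to the left of their circles, with the widest gaps for CALD1, TAGLN, PDLIM1 and TPM4, while TLN1, CFL1, PFN1, TPM3, TAGLN2 and MYH10 lie the other way.

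The 3 genes that were not compared had next to no counts. ACTN4, an alpha-actinin, was listed at 0 in both libraries, and 3 counts would have been 0.137 and 0.183 CPM. Its symbol stands on 2 rows of the files, and protein-coding symbols on more than 1 row were at 0 in both libraries in 55.6% of cases, against 22.0% of those on 1 row. MYL9, the regulatory light chain typical of smooth muscle, had 5 counts and 0 counts. MSN, which encodes the membrane linker moesin, had 12 and 4 counts, with a ratio of 0.445 (0.105 to 1.47). CALD1 and TAGLN were compared only through their control level, since both were under 1 CPM in the knockout-labelled library.

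The CArG box was present near the start of several of these genes. Promoter windows that run from 250 bases before to 50 bases after a RefSeq transcript start were at hand for 39 of the 42 genes, ACTB, MYL9 and TAGLN being the others. At least 1 CArG box, on either strand, stood in a window of 7 genes, ACTG1, ACTN1, CNN2, FHL2, FLNA, SRF and TPM4. That is 17.9% of the 39, against 1.60% of all 27305 genes with a window. The members had more windows per gene, and by window 9 of their 72 held a box, against 1.29% of all 35116. Since the genes were listed partly as SRF targets, more boxes than in all genes are built into both contrasts, which are a description only. A match of letters is a description and not a binding site. The stretches below, read 5′ to 3′ on the strand of the gene from RefSeq on build GRCh38.p14, are shown because they hold the element that the genes share, in capitals.
ACTG1, chr17:81512829-81512948, minus strand: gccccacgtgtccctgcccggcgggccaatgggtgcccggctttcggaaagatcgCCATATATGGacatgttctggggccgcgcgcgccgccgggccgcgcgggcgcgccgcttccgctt
TPM4, chr19:16067310-16067429, plus strand: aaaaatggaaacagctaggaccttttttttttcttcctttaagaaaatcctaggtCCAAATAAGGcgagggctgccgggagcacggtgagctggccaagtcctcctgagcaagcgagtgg
FHL2, downstream start, chr2:105399046-105399165, minus strand: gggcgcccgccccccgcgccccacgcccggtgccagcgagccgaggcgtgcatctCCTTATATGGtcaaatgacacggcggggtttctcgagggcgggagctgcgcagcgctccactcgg
FHL2, upstream starts, chr2:105438550-105438669, minus strand: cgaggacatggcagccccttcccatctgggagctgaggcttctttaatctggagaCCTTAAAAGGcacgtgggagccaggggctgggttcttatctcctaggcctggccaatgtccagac
ACTN1, chr14:68977673-68977792, minus strand: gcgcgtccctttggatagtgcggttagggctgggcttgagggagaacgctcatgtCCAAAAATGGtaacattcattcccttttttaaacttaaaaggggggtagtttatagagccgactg
CNN2, chr19:1026464-1026583, plus strand: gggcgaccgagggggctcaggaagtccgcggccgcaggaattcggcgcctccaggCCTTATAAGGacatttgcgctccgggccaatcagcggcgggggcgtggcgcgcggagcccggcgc
FLNA, chrX:154374664-154374783, minus strand: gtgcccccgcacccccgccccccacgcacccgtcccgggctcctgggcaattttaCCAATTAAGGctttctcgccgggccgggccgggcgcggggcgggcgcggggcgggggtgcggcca
SRF, chr6:43171184-43171303, plus strand: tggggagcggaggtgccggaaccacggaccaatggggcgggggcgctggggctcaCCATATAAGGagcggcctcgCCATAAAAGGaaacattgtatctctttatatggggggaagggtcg

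The first base of the box lay 94 bases before the start in ACTG1 and FLNA, 89 in CNN2, 171 in ACTN1 and 173 in TPM4. FHL2 had a box 59 bases before its downstream start and another 85 and 101 bases before its upstream starts. SRF had 2 boxes, 30 and 10 bases before its start. The 7 genes had log2 ratios from -1.80 for TPM4 to -0.20 for SRF, with a median of -0.99. The median over the 30 compared members with a window and no box was -0.56. At least 2-fold lower were 3 of the 7 and 10 of those 30, so genes without a box in this window were also among the lower ones. Among compared genes outside the list, 132 had a box, of which 9.09% were at least 2-fold lower and 5.30% at least 2-fold higher, with a median of -0.05. For all compared genes with a window and no box, members included, these values were 5.30%, 6.69% and 0.12. Because the files count whole genes, the use of one start or another was not measured.

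**Figure D2:**
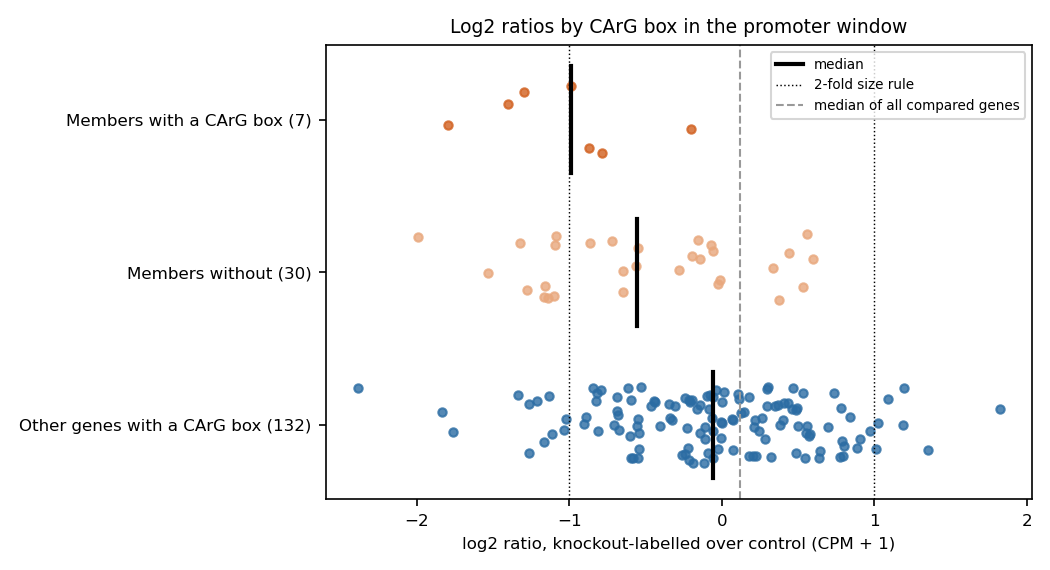
Log2 ratio of knockout-labelled over control (CPM plus 1) on the horizontal axis for the 7 members with a CArG box in a promoter window, the 30 compared members without and the 132 other compared genes with one; each point is a gene, thick bars are medians, dotted lines mark the 2-fold rule and the dashed line the median of all compared genes. The members with a box span -1.80 to -0.20, and the other genes with a box lie on both sides of 0.

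The AP-1 element TGANTCA and the TEAD element GGAATG were searched in the same windows, on both strands. AP-1 was present for 4 members, ACTN4, CALD1, CAPG and TAGLN2, which is 10.3% of the 39 against 9.37% of all genes with a window. TEAD was present for 11, or 28.2% against 16.7%. They were ACTN1, CALD1, CNN3, FHL2, LIMA1, MYH10, MYH9, MYL12A, PFN1, PXN and VCL. By window, AP-1 stood in 5 of the 72 member windows, against 7.71% of all windows. TEAD stood in 12 of the 72, against 14.0% of all windows. The 11 genes with a TEAD element had log2 ratios from -1.54 for CALD1 to 0.56 for MYH10, and 6 of them were at least 2-fold lower, as were 7 of the 26 compared members with a window and no TEAD element. Among compared genes outside the list that had the TEAD element, 6.94% were at least 2-fold lower and 6.87% at least 2-fold higher. With a window and no TEAD element, the shares of compared genes, members included, were 5.04% and 6.64%. Outside the list 655 compared genes had the AP-1 element, of which 8.40% were lower and 5.34% higher by the same rule. Without AP-1 the shares, members included, were 5.13% and 6.77%.

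The cytoplasmic actins moved by unequal amounts. ACTG1, gamma-actin, at chr17:81509971-81523847 on the minus strand in the GENCODE 29 annotation of GRCh38, had 84085 and 23819 counts, or 3843 and 1452 CPM. It was 2.65-fold lower (2.61 to 2.69). ACTB, beta-actin, had 3262 and 2652 CPM, 1.23-fold lower (1.22 to 1.24). Gamma-actin therefore went from 54.1% of the counts of the pair to 35.4%, and beta-actin from 45.9% to 64.6%. These shares need no scaling between libraries but are not corrected for transcript length, so that only their change is read.

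Tropomyosins, which coat the filament and set which motors and severing proteins can bind, differed among themselves more than the actins. TPM4, at chr19:16067021-16103005 on the plus strand, had 26127 and 5631 counts, or 1194 and 343 CPM, and was 3.48-fold lower (3.38 to 3.58). TPM3 was at 351 and 443 CPM, 1.26-fold higher (1.22 to 1.31). TPM1 was at 218 and 216 CPM, 1.01-fold lower with an interval that spans 1 (0.966 to 1.05). The family therefore had 1 strongly lower member beside 1 that was nearly level and 1 that was higher. TPM2, sparsely counted here, had 56 and 19 counts and was 2.21-fold lower (1.29 to 3.94) by CPM, but its log2 ratio with the added 1 was -0.72. TPM4 made up 67.6% and 34.2% of tropomyosin counts, TPM3 19.9% and 44.2%, and TPM1 12.4% and 21.6%.

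**Figure D3:**
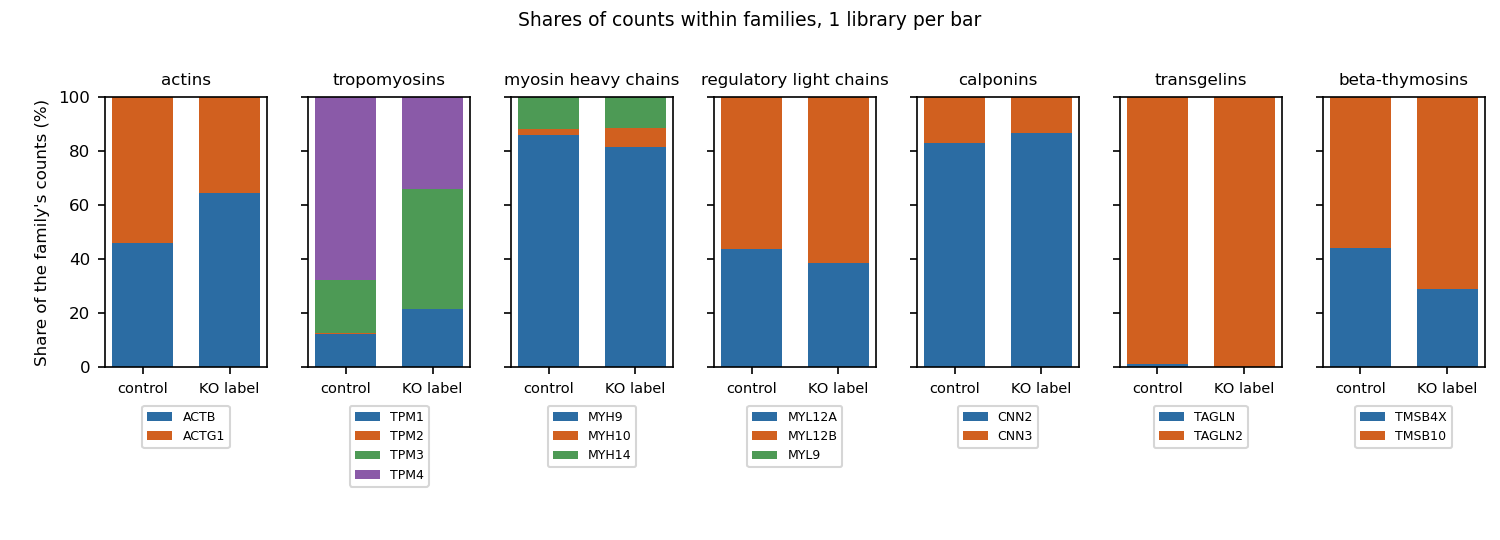
Stacked bars of the share of each gene in the counts of its family, in percent, with 1 bar for the control and 1 for the knockout-labelled library in each of 7 families. TPM4 goes from 67.6% to 34.2% of tropomyosin counts and ACTG1 from 54.1% to 35.4% of actin counts, while MYH9 stays above 80% of myosin heavy chain counts.

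Non-muscle myosin II, the motor that contracts actin bundles, was lower through its most counted heavy chains. MYH9, the heavy chain of myosin IIA, had 28375 and 9461 counts, or 1297 and 577 CPM, and was 2.25-fold lower (2.20 to 2.30). MYH14, the heavy chain of myosin IIC, was at 180 and 80.0 CPM, also 2.25-fold lower (2.11 to 2.40). MYH10, the heavy chain of myosin IIB, went the other way, at 33.0 and 48.9 CPM and 1.49-fold higher (1.34 to 1.64). The summed heavy chain level was 1510 and 706 CPM, and the share of MYH10 in it was 2.18% and 6.94%. The light chains differed less than MYH9 and MYH14. Of the regulatory light chains, MYL12A was at 335 and 184 CPM, 1.82-fold lower (1.75 to 1.90), and MYL12B at 429 and 293 CPM, 1.47-fold lower (1.42 to 1.52). The essential light chain MYL6 was at 266 and 241 CPM, 1.10-fold lower (1.06 to 1.15).

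Calponins, transgelins and caldesmon bind along the filament, and their smooth muscle forms are classical SRF targets. CALD1, caldesmon, had 88 and 12 counts, or 4.02 and 0.731 CPM, 5.50-fold lower (2.99 to 11.0). TAGLN, transgelin, had 59 and 9 counts, or 2.70 and 0.549 CPM, 4.92-fold lower (2.42 to 11.3). Their wide intervals follow from the few counts, and with a pseudocount of 5 CPM in place of 1 their log2 ratios of -1.54 and -1.26 became -0.65 and -0.47, short of the 2-fold rule. CNN3, acidic calponin, rested on more counts, 2197 and 669, or 100.4 and 40.8 CPM, and was 2.46-fold lower (2.26 to 2.69). CNN2 was at 486 and 266 CPM, 1.83-fold lower (1.77 to 1.90), and TAGLN2, the transgelin with most counts here, was at 213 and 277 CPM, 1.30-fold higher (1.25 to 1.35). Of the defining smooth muscle genes, CNN1 and SYNPO2 were at 0 in both libraries. MYH11 was also listed at 0, but its symbol stands on 2 rows, as that of ACTN4 does. The summed level of the 9 smooth muscle markers was 17.1 and 7.31 CPM, most of it ACTA2 at 14.5 and 5.79 CPM. MYLK had 32 and 19 counts, with a ratio of 0.792 whose interval spans 1 (0.424 to 1.44). SYNM had 17 and 2 counts, ACTG2 5 and 0 and LMOD1 3 and 1, while DES went the other way, at 1 and 3. The 12 fibroblast markers summed to 6.12 and 3.41 CPM, most of it PDGFRB at 4.66 and 2.32 CPM. PDGFRB was the only one compared, with a log2 ratio of -0.77. COL1A1 had 24 and 6 counts, and COL6A3 and FAP each had 1 and 0. Higher under the knockout label were COL5A1, at 6 and 9 counts, THY1, at 0 and 2, and POSTN, at 0 and 1. COL1A2, COL3A1, DCN, LUM and PDGFRA were at 0 in both libraries. The part of these markers in the CALD1 and TAGLN values was not tested, and in bulk RNA fewer cells of a type and less RNA per cell cannot be told apart.

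The filament crosslinkers were lower by similar amounts. FLNA, filamin A, which joins filaments into a network and ties them to integrins, was at 2156 and 1250.4 CPM, 1.72-fold lower (1.70 to 1.75). ACTN1, alpha-actinin 1, which bundles filaments in stress fibres, was at 370 and 186 CPM, 1.99-fold lower (1.91 to 2.07). With a log2 ratio of -0.99 ACTN1 fell just short of the 2-fold rule, and it passed at -1.11 to -1.14 when the libraries were scaled by TMM, by upper quartiles or by median gene ratios.

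**Figure D4:**
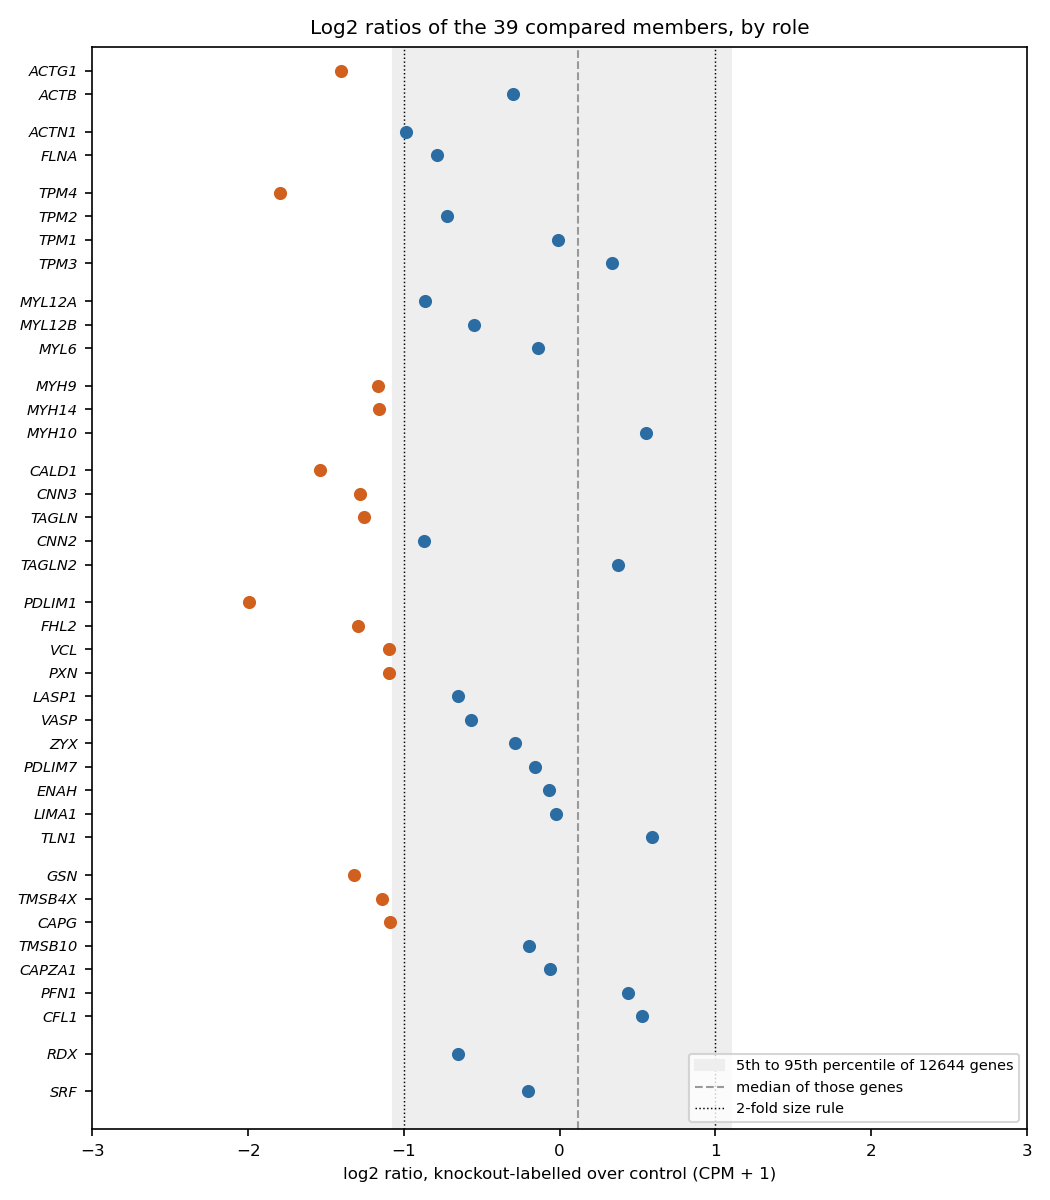
Log2 ratio of knockout-labelled over control (CPM plus 1) for each of the 39 compared genes, grouped by role, with the 2-fold rule as dotted lines, the median of all compared genes as a dashed line and their 5th to 95th percentile as a grey band. The 14 genes at least 2-fold lower are drawn in orange, PDLIM1 (-1.996) and TPM4 (-1.80) lie lowest, and TLN1 (0.60) lies highest.

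Of the 11 focal adhesion and LIM domain proteins, 4 were at least 2-fold lower and 10 had a log2 ratio below 0. PDLIM1, a PDZ and LIM protein that binds alpha-actinin, at chr10:95237572-95291024 on the minus strand, had 4093 and 757 counts, or 187 and 46.1 CPM. It was 4.05-fold lower (3.75 to 4.39), with a log2 ratio of -1.996. That was the lowest of the 39 genes with the added 1 CPM, whereas with 0.1 CPM CALD1 (-2.31) and TAGLN (-2.11) lay below it (-2.02). FHL2, a LIM-only protein that shuttles between adhesions and nucleus, was at 296 and 120 CPM, 2.47-fold lower (2.35 to 2.60). VCL, vinculin, which couples talin to actin, was at 532 and 248 CPM, 2.15-fold lower (2.07 to 2.22). PXN, the scaffold paxillin, was at 497 and 232 CPM, 2.14-fold lower (2.06 to 2.22).

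TLN1, talin 1, the link from integrins to actin, was at 192 and 290 CPM, 1.51-fold higher (1.45 to 1.58). It was the gene at least 1.5-fold higher under total-count scaling, and its log2 ratio of 0.60 fell below that size, to between 0.44 and 0.48, under each of the other scalings. The others of the group lay between the 2-fold bounds. LASP1, an adaptor of filaments and adhesions, was at 458 and 291 CPM, 1.57-fold lower (1.52 to 1.63). VASP and ENAH, which promote filament elongation, were at 122 and 81.9 CPM and at 148 and 141 CPM, 1.49-fold (1.39 to 1.59) and 1.05-fold (0.994 to 1.11) lower. ZYX, zyxin, which recruits them to strained filaments, was at 171 and 140 CPM, 1.22-fold lower (1.16 to 1.28). PDLIM7 was at 48.6 and 43.6 CPM, 1.12-fold lower (1.01 to 1.23), and LIMA1, which stabilises filaments, was at 120 and 118 CPM with a ratio whose interval spans 1 (0.927 to 1.04).

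Genes for filament turnover and monomer binding split into lower and higher members, and their summed level was nearly level at 2589 and 2552 CPM. GSN, gelsolin, which severs and caps filaments, had 1063 and 309 counts, or 48.6 and 18.8 CPM, 2.58-fold lower (2.27 to 2.94). TMSB4X, thymosin beta 4, which sequesters monomers, was at 542 and 246 CPM, 2.20-fold lower (2.13 to 2.29). CAPG, the gelsolin-like capping protein, was at 50.8 and 23.3 CPM, 2.17-fold lower (1.93 to 2.45), and its log2 ratio of -1.09 became -0.98 with a pseudocount of 5 CPM. Both genes above 0 in this group bind monomers, but so does TMSB4X, which was lower. CFL1, cofilin 1, which also severs filaments, was at 602 and 870 CPM, 1.44-fold higher (1.41 to 1.48), and PFN1, profilin 1, at 405 and 551 CPM, 1.36-fold higher (1.32 to 1.40). TMSB10 was at 685 and 599 CPM, 1.14-fold lower (1.12 to 1.17), and TMSB4X accordingly went from 44.2% to 29.1% of the counts of the pair. CAPZA1, a subunit of capping protein, was at 255 and 244 CPM, 1.04-fold lower (1.0001 to 1.09). RDX, radixin, which links filaments to the membrane, was at 250.03 and 159 CPM, 1.57-fold lower (1.5004 to 1.65).

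SRF itself differed little. It was at 78.3 and 68.0 CPM, 1.15-fold lower (1.07 to 1.24). Among its cofactors and ternary complex factors, 6 of 8 were compared. At least 2-fold lower were 0, against 5.69% of all compared genes, and at least 2-fold higher was 1, against 6.78%. The median log2 ratio of the 6 was 0.12, the same as that of all compared genes. The higher one was MKL2, now called MRTFB, at 22.0 and 56.1 CPM, 2.55-fold higher (2.28 to 2.85). MKL1, now called MRTFA, was at 24.9 and 34.8 CPM, 1.40-fold higher (1.24 to 1.57), and MYOCD, the muscle cofactor, was at 0 in both. The ternary complex factors ELK1, ELK4 and ELK3 had log2 ratios of 0.14, 0.10 and -0.14, and SCAI, an inhibitor of MRTF, one of -0.31.

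Other SRF targets were taken from a list that excludes the 42. Of 31 genes 21 were compared, with a median log2 ratio of -0.69. At least 2-fold lower were 8 (38.1%), against 5.69% of all compared genes, and at least 2-fold higher were 0, against 6.78%. CTGF, ANKRD1 and EGR3 were among the 8 and were compared only through their control level, being under 1 CPM in the knockout-labelled library, so that the count is a description. DSTN and FLNC stand in this list and in a further one, and ACTA2 is also among the smooth muscle markers above. CTGF, a secreted matricellular protein, had 281 and 8 counts, 26.3-fold lower (13.2 to 61.6). ANKRD1, a nuclear and sarcomeric ankyrin repeat protein, had 184 counts and 1 count, with a knockout-labelled to control ratio of 0.00725 (0.000183 to 0.0409). FOSB, an immediate early transcription factor, was at 11.3 and 1.89 CPM, 5.998-fold lower (4.12 to 9.02). The other five past the rule, named after their values were seen, were EGR3, MYADM, CYR61, AMOTL2 and ACTA2, from 2.50-fold lower for ACTA2 to 6.41-fold lower for EGR3. Not every immediate early gene was lower. FOS was at 10.2 and 12.7 CPM and IER2 at 129 and 175 CPM, both named after their values were seen. CTGF, CYR61, ANKRD1 and AMOTL2 are also known targets of YAP and TEAD, so that the list is not particular to SRF.

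The nucleation genes lay closer to the median of all genes. Of 23 genes of the Arp2/3 complex and its activators, which nucleate branched filaments, 21 were compared, with a median of -0.05. At least 2-fold lower were 0, against 5.69% of all compared genes, and at least 2-fold higher were 0, against 6.78%. With so few genes, a count of 0 is near these shares. The members of that list with most counts were ACTR2, at 746 and 742 CPM, and NCKAP1, at 512 and 401 CPM.

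Further lists held the relatives of the 42 genes, and their counts are read against the 5.69% of all compared genes that were at least 2-fold lower and the 6.78% at least 2-fold higher. Of 24 other capping, severing and monomer binding proteins 23 were compared, and 2 (8.70%) were at least 2-fold lower and 0 higher, with a median of -0.22. SCIN, scinderin, a relative of gelsolin, had 96 and 6 counts and was 11.997-fold lower (5.31 to 33.5), compared only through its control level, and the coronin CORO2A was at 9.55 and 4.27 CPM, 2.24-fold lower (1.70 to 2.98). Of 24 other crosslinkers and cortex proteins 23 were compared, and 1 (4.35%) was lower, the bundling protein FSCN1 at 75.1 and 36.2 CPM, 2.07-fold (1.89 to 2.28), and 0 were higher, with a median of -0.18. Of 27 other focal adhesion proteins 22 were compared, and 3 (13.6%) were lower and 1 higher, with a median of -0.28. The first and second of these shares are near that of all compared genes. TNS4, a tensin of epithelial cells, was at 302 and 83.2 CPM, 3.63-fold lower (3.42 to 3.85). NEDD9, a scaffold of the Cas family, was at 4.80 and 1.65 CPM and TGFB1I1, a relative of paxillin, at 9.69 and 4.21 CPM, 2.92-fold (1.90 to 4.63) and 2.30-fold (1.75 to 3.07) lower. FERMT1, kindlin 1, a partner of talin in integrin activation, was at 45.7 and 109 CPM, 2.39-fold higher (2.21 to 2.58).

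**Figure D5:**
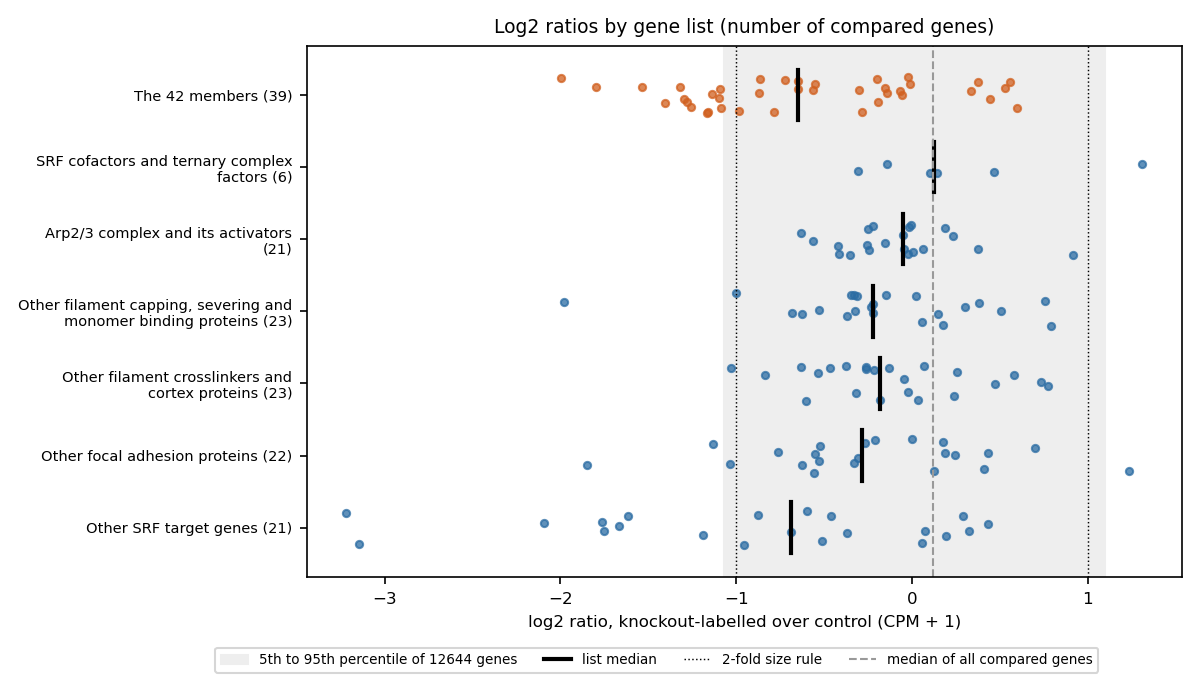
Log2 ratio of knockout-labelled over control (CPM plus 1) for each compared gene of the 42 and of 6 further lists, with each list's median as a thick bar, the 2-fold rule as dotted lines, the median of all compared genes as a dashed line and their 5th to 95th percentile as a grey band from -1.07 to 1.10. The medians of the 42 (-0.65) and of the other SRF targets (-0.69) lie farthest to the left, and that of the Arp2/3 list is -0.05.

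Reads shared with other genes could touch some of these values. Of the 42 genes, 17 overlap an exon of a gene on the opposite strand in GENCODE 29, and the sources used here do not state whether the counting used strand. Among the 14 genes at least 2-fold lower, 6 have such an overlap and 8 have none. TAGLN overlaps PCSK7, which was at 42.2 and 75.8 CPM, and VCL overlaps AP3M1, at 122 and 109 CPM. Named pseudogenes of 20 of the genes, 104 symbols, held 550 and 505 counts in all, and adding them to their parent genes left the count of lower members at 14.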

How the data were processed

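Total RNA of 2 DLD1 libraries, 1 per group, was analysed from the gene counts that the authors deposited, whole numbers with no normalization. Reads were aligned with TopHat to GRCh38, per the submitters' processing notes; the sources used here do not state the counting program, annotation or strand setting. Rows of a symbol were summed (58173 rows, 52402 symbols) and scaled to CPM by the library total. Genes were compared, from a mean of 1 CPM upwards, by log2 of CPM plus 1, with a size rule of 2-fold and a second of 1.5-fold. With 1 library per group no test was run. Ratio intervals are exact conditional Clopper-Pearson intervals at 95% (scipy 1.17.1). Alternatives were scaling by TMM or upper quartile (edgeR 4.0.16, factors only) or by the median of gene ratios (DESeq2 1.42.0, factors only), pseudocounts of 0.1 and 5 CPM, no minimum or a mean of 5 CPM, the row with most counts per symbol, and pseudogene counts added. The scripts were tested on simulated data. Promoter windows are RefSeq's (GRCh38.p14), and gene positions GENCODE 29. All 42 members are named. Of other lists, the members past the 2-fold rule are named, at most the 3 highest and 3 lowest, or the 2 with most counts where none passed. The members and lists were chosen with earlier results of these data known. Of the remaining marker lists, 1 of 7 striated muscle genes (MB, 21.3 and 11.0 CPM), 2 of 8 blood genes (CORO1A, 36.1 and 65.6 CPM, and CD68, 2.47 and 0.914 CPM) and 1 of 6 endothelial genes (ESAM, 9.09 and 6.16 CPM) were compared, and PTPRC was at 0. A further list of signalling genes is not reported here.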

Additional observations from a re-analysis of the deposited data

How the results depend on the processing

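The direction of all 39 compared members was the same under every alternative run, and 32 of the 39 also kept their side of the 2-fold rule. The number at least 2-fold lower was 14, and 15 with TMM, 17 with the upper quartile, 17 with the median of gene ratios, 15 with a pseudocount of 0.1 CPM, 11 with one of 5 CPM and 12 with a minimum mean of 5 CPM; the number higher was 0 in each. Scaling moved the median of all compared genes from 0.12 to 0.00 (TMM), -0.01 (upper quartile) and -0.03 (median of gene ratios), and the share of all genes at least 2-fold lower and higher from 5.69% and 6.78% to 6.95% and 4.75%, 7.25% and 4.54%, and 7.47% and 4.30%. The median of the members moved from -0.65 to -0.77, -0.79 and -0.81 in that order, and to -0.54 with a pseudocount of 5 CPM. The number at least 1.5-fold higher went from 1 to 0 with TMM, 0 with the upper quartile and 0 with the median of gene ratios. With a pseudocount of 5 CPM the genes at least 2-fold lower went from 2 to 0 among other capping and severing proteins, from 1 to 0 among other crosslinkers and from 3 to 1 among other focal adhesion proteins; a larger pseudocount shrinks the ratios of genes with few counts by construction. MYL12A and CNN2 passed the 2-fold rule with the upper quartile (-1.01 and -1.01) and the median of gene ratios (-1.02 and -1.03), and TPM2 with a pseudocount of 0.1 CPM (-1.08). No paired analysis was possible because each group has 1 library. With 1 library per group, clone, culture and library preparation cannot be told apart from the knockout label, and depth limits CALD1, TAGLN, TPM2, MYL9 and MSN most.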

Other observations

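Outside the 42 genes, 132 compared genes had a CArG box in a promoter window. Of these, 12 (9.09%) were at least 2-fold lower and 7 (5.30%) at least 2-fold higher. Among all compared genes with a window and no box, members included, the shares were 5.30% and 6.69%. The examples here were picked after their values were seen. GPC2, a cell surface heparan sulfate proteoglycan, had 211 control counts against 17 under the knockout label, with a log2 ratio of -2.39. MYADM, a membrane protein of the cell cortex, was at 257 and 75.1 CPM, with a log2 ratio of -1.76. On the other side stood the HMG box factors of the Wnt pathway, LEF1 at 25.0 and 90.9 CPM (1.82) and TCF7 at 15.5 and 41.2 CPM (1.35). A CArG box in the window thus accompanied values in both directions.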
